A study of Mus musculus with 3 samples.

Results

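The 7 Fc receptor and Fc receptor-like genes Fcer2a, Fcgr2b, Fcmr, Fcrla, Fcrl1, Fcrl5 and Fcgrt are described here in mouse B cell lymphomas. They were taken by gene symbol, without use of their values, and they are 7 of the 37646 genes listed in each library. The 3 libraries, called tumours 1, 2 and 3, hold polyA RNA of B220+GFP+ cells that were sorted from the spleens of pBIC2 mice on the C57BL/6 strain. All 3 carry the same alleles: p53F/F (floxed Trp53), Blimp1F/F (floxed Prdm1), IKK2castopF/stopF (a constitutively active form of IKK2, which switches on NF-κB, behind a floxed stop cassette), Cg1Cre/+ (Cre recombinase from the Cγ1 locus, which is transcribed in activated B cells) and Eµ-hBCL2tg/+ (human BCL2 under the Eµ enhancer). The labels give no age, and do not say that each library is a separate mouse, so the spread between libraries may be partly technical. With 1 group there is no contrast to test, so the values are levels in each library and their spread, and germinal centre B cells were not analysed here.

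Fc receptors bind the constant part of antibodies. B cells use them to sense antibody that has already been made: Fcgr2b encodes FcγRIIB, which carries an inhibitory tyrosine motif and dampens signalling when IgG complexes link it to the B cell receptor. Fcmr encodes the receptor for the Fc part of IgM, and Fcer2a encodes CD23, the low-affinity IgE receptor, a C-type lectin that marks follicular B cells. The Fc receptor-like genes encode relatives of the Fc receptors. Fcrl1 and Fcrl5 are membrane proteins of B cells, Fcrla stays inside the cell, and Fcgrt encodes the heavy chain of FcRn, an MHC class I-like receptor that pairs with β2-microglobulin and recycles IgG.

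The libraries held 15576975 to 17014022 counts. Levels are CPM, counts scaled to library size with TMM factors. None of the 12 pan B cell genes fell below 10 CPM in any library, and their medians were 853, 1338 and 1153 CPM. Markers of other cells differed between the libraries. The 10 T cell genes summed to 302, 97.6 and 1063 CPM in tumours 1, 2 and 3, and 7 of the 10 were lowest in tumour 1, with Cd3e at 0, 23 and 1023 counts and Cd8a at 10, 74 and 4222. The tumour 1 sum came mainly from Tcf7 (146 CPM), Cd5 (82.0 CPM, also in the B-1 cell list) and Lck (68.7 CPM). The 8 NK cell genes summed to 2.92, 8.58 and 225 CPM. The tumour 3 sum came mainly from Eomes (173 CPM) and Prf1 (40.0 CPM). Ncr1 of the same list had 0 counts in all libraries, and Klrb1c had 26, 1 and 0 counts. The 12 macrophage and monocyte genes summed to 37.4, 420.4 and 187 CPM, with Vsig4 at 0 in all libraries and Cd14 at 0 in tumours 1 and 3. A gene's level in a sorted bulk sample cannot tell fewer cells of a type from less RNA per cell.

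Of the 7 genes, 6 were lowest in tumour 1, and Fcmr alone was highest there. Among the 11273 genes that passed the filter on low counts, 34.3% were lowest in tumour 1. All 7 passed that filter. Of the 7, 5 were highest in tumour 3, against 33.4% of all tested genes. Fcgrt is in both counts, although its counts were too few to show a difference between the libraries. Of the 10 T cell genes, of which 6 passed the filter, 7 were likewise lowest in tumour 1, beside 45.3% of all genes without the filter. Their sum was lowest in tumour 2. Of the 12 pan B cell genes, which all passed, 6 were lowest in tumour 1. The T cell and NK cell sums were highest in tumour 3. The part of T cells and NK cells in the levels of the 7 genes was not tested. The highest and lowest libraries lay at least 4-fold apart (2 on the log2 CPM scale) for 3 of the 7, Fcmr, Fcer2a and Fcrl1, beside 9.43% of all tested genes, and at least 2-fold apart for 6 of the 7, beside 34.1%. The median log2 range was 1.87 over the 7 genes and 0.75 over all tested genes. Without tumour 1 only Fcmr was 4-fold apart (3.79% of tested genes). When each gene was set against the median of the pan B cell genes in its own library, 4 of 7 were lowest in tumour 1 (11.8% of all tested genes), Fcrla and Fcgrt were instead lowest in tumour 2, and the log2 range of Fcrl1 fell to 1.80.

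**Figure D1:**
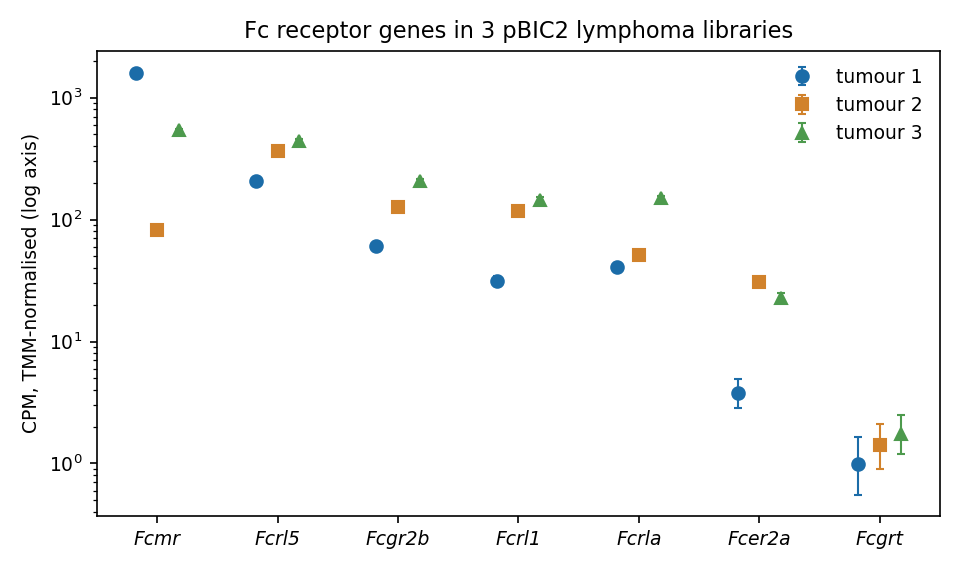
TMM-normalised CPM (log axis) of each gene in tumours 1, 2 and 3, with exact 95% Poisson intervals for counting error. Fcmr runs from 82.1 to 1605 CPM and is highest in tumour 1, while the other 6 genes have their lowest point in tumour 1.

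Fcmr, the IgM receptor (ENSMUSG00000042474.6, mm10 chromosome 1, 130865669 to 130880791, plus strand), had the highest mean and the widest range of the 7. Its 24219, 1339 and 9707 counts in tumours 1, 2 and 3 correspond to 1605, 82.1 and 547 CPM (745 ± 781 CPM, SD, n = 3). Tumour 1 stood 19.6-fold above tumour 2 and 2.93-fold above tumour 3. The mean was 315 CPM without tumour 1 and 1076 CPM without tumour 2. The SD of its log2 CPM, 2.17, was above that of 98.4% of tested genes. Fcmr gave 82.4% of the summed CPM of the 7 genes in tumour 1, 10.6% in tumour 2 and 36.0% in tumour 3. The 7 together reached 1948, 772 and 1518 CPM in tumours 1, 2 and 3.

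The ligand gene of this receptor was much steadier. Ighm, the IgM heavy chain constant gene, was at 5663, 6282 and 5937 CPM in tumours 1, 2 and 3, a log2 range of 0.15. Of the 8 antibody heavy chain constant genes, the 7 that passed the filter had a median log2 range of 2.55. Of these, 4 were at least 4-fold apart, beside 9.43% of all tested genes. Ighg3 was at 50.6, 235 and 519.6 CPM, Ighg1 at 42.0, 99.7 and 6.14 CPM, and Ighg2b at 5.43, 38.7 and 51.9 CPM. Ighe, which encodes the ligand of CD23, had 9, 34 and 9 counts. The IgG genes are near copies of each other, so their levels are uncertain. Ighg1 is also the locus that carries Cre, and a gene count does not show which allele the reads came from.

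Fcgr2b, the inhibitory IgG receptor (ENSMUSG00000026656.15, chromosome 1, 170958617 to 170976547, minus strand), was at 60.3, 128 and 207 CPM in tumours 1, 2 and 3 (132 ± 73.6 CPM). Tumour 3 was 3.44-fold above tumour 1, and no 95% counting interval overlapped another (56.5 to 64.4, 122 to 133 and 201 to 214 CPM). Macrophages also express Fcgr2b. The sum of the macrophage list given above was lowest in tumour 1, as Fcgr2b was, and highest in tumour 2, where Fcgr2b had its middle value. The 10 neutrophil genes summed to 0.199, 17.0 and 43.3 CPM, in the same order of libraries as Fcgr2b, and none of them passed the filter. The part of either cell type in Fcgr2b was not tested. Of the 50-base words in its GENCODE transcripts, 6.95% (395 of 5685) also occur in another gene, 166 of them in Fcgr3, and 155 exonic bases overlap the antisense gene Gm38204 (2, 0 and 3 counts), so some of its reads may be lost or misassigned.

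The genes listed for inhibitory signalling through tyrosine motifs were present in every lymphoma. All 9 were at 10 CPM or more in each library, led by Ptpn6, which encodes the phosphatase SHP-1 (1181, 669.5 and 978 CPM), and Csk, a kinase that restrains SRC family kinases (515, 326 and 548 CPM). Of the 9, 7 were lowest in tumour 2, beside 30.6% of all tested genes, and 1 was 4-fold apart, beside 9.43%. That was Inppl1, which encodes the lipid phosphatase SHIP2, at 269, 44.6 and 53.3 CPM. Dok3, an adaptor of inhibitory signalling, was at 413, 167 and 373 CPM.

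The list of B cell receptor partners had 8 of 8 genes at 10 CPM or more in every library and none 4-fold apart. Besides activating partners it holds Cd22, an inhibitory receptor, at 798, 986 and 521 CPM. Cd79b, a signalling chain of the B cell receptor, was at 519, 1339 and 1521 CPM. Cd79a, its partner chain, was at 908, 1612 and 849 CPM. Syk, the kinase that binds the phosphorylated chains, was at 570.2, 1252 and 1253 CPM, lowest in tumour 1 as Fcgr2b was. Of the 8 genes, 3 were lowest in tumour 1, near the 34.3% of all tested genes, and 4 were lowest in tumour 3.

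Fcer2a, which encodes CD23 (ENSMUSG00000005540.10, chromosome 8, 3681737 to 3694175, minus strand), had 57, 501 and 406 counts. In CPM these are 3.78 (exact 95% Poisson interval 2.86 to 4.89), 30.7 (28.1 to 33.5) and 22.9 (20.7 to 25.2) for tumours 1, 2 and 3, a mean of 19.1 ± 13.9. Tumour 2 was 8.13-fold and tumour 3 was 6.06-fold above tumour 1, while tumours 2 and 3 lay within 1.34-fold. Tumour 1 stood apart and the other two lay close together. The SD of its log2 CPM, 1.61, was above that of 96.2% of tested genes. Follicular dendritic cells also carry CD23. The list of 11 follicular dendritic cell and stroma genes summed to 10.1, 9.69 and 11.2 CPM, and none of them passed the filter. Different genes made up that sum, led by Col1a1 in tumour 1 (8.42 CPM), Vcam1 in tumour 2 (8.09 CPM) and Mfge8 in tumour 3 (4.11 CPM), and Cxcl13 had 0, 0 and 30 counts. The part of such cells in Fcer2a was not tested.

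Of 10 genes known to induce, bind or shed CD23, all passed the filter and 9 reached at least 10 CPM throughout. Of the 10, 3 were lowest in tumour 1, near the 34.3% of all tested genes, and 5 were lowest in tumour 2, where Fcer2a was highest. Only 1 was 4-fold apart, beside 9.43% of all tested genes. That gene was Cr2, which encodes CD21, a binding partner of CD23, at 8.55, 149.8 and 286 CPM, with tumour 1 lowest as for Fcer2a. Pax5, a B cell transcription factor, was at 1252, 1336 and 960.1 CPM. The cytokine receptor kinases Jak1 and Jak3 were at 299.7, 319 and 514 CPM and at 122, 114 and 259 CPM.

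The Fc receptor-like genes Fcrl1 and Fcrl5 lie 32.8 kb apart on chromosome 3, both on the plus strand. Fcrl1 (ENSMUSG00000059994.10, 87376387 to 87402934) was at 31.2, 117 and 146 CPM in tumours 1, 2 and 3 (98.1 ± 59.7 CPM), with tumour 1 4.68-fold below tumour 3 and tumours 2 and 3 within 1.25-fold. Fcrl5 (ENSMUSG00000048031.15, 87435773 to 87500678) was at 206, 362 and 444 CPM (337 ± 121 CPM). The libraries stood in the same order for both genes, and the range of Fcrl5, 2.16-fold, was the smaller. The SD of its log2 CPM, 0.58, was above that of 71.0% of tested genes, against 92.7% for Fcrl1. Etv3, on the other side of Fcrl5 at 24.7 kb, was at 121, 128 and 103 CPM.

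Fcrla (ENSMUSG00000038421.13, chromosome 1, 170917576 to 170927583, minus strand), which encodes a protein of the endoplasmic reticulum that binds immunoglobulin inside B cells, was at 40.8, 51.2 and 149 CPM (80.3 ± 59.8 CPM). Tumour 3 set it apart, 2.91-fold above tumour 2 and 3.66-fold above tumour 1, and tumours 1 and 2 were within 1.26-fold. The mean was 46.0 CPM without tumour 3. Fcrla lies 31.0 kb from Fcgr2b, which was also lowest in tumour 1 and highest in tumour 3.

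Fcgrt, the FcRn heavy chain (ENSMUSG00000003420.8, chromosome 7, 45092990 to 45103851, minus strand), was close to the limit of detection. It had 15, 23 and 31 counts, or 0.994 CPM (0.556 to 1.64), 1.41 CPM (0.894 to 2.12) and 1.75 CPM (1.19 to 2.48) in tumours 1, 2 and 3. The counting intervals of the 3 libraries overlapped, and no difference between them was detectable at this depth. B2m, which encodes its partner β2-microglobulin and also serves MHC class I, was at 3597, 4495 and 4289 CPM.

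**Figure D2:**
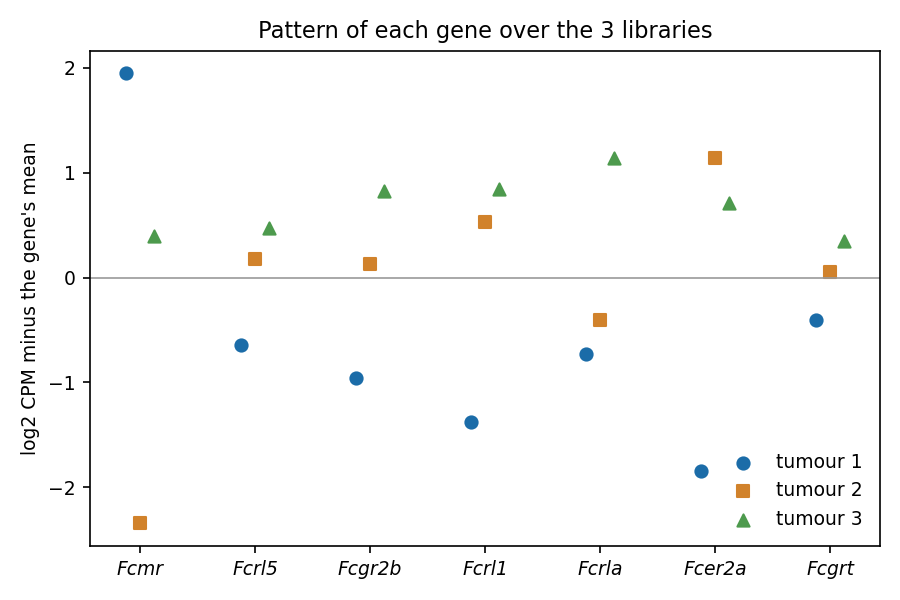
Log2 CPM of each gene minus its mean over the 3 libraries, so that only the pattern and not the level is shown. Tumour 1 lies lowest for every gene except Fcmr, where it is at 1.95 and tumour 2 is at -2.34.

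By the distance between these centred patterns, Fcmr stood farthest from the rest, at 3.36 (Fcgrt) to 5.16 (Fcer2a) log2 units from each of the other 6. The distances among those 6 ran from 0.30 (Fcrl5 and Fcgrt) to 1.95 (Fcer2a and Fcrla), and Fcgr2b and Fcrl5 were at 0.48. Over 3 libraries such a distance is a description only.

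Genes at a mean of 10 CPM or more were ranked by the same distance to name those most like each member with at least a 2-fold range. Immunoglobulin, T cell receptor, mitochondrial and predicted (Gm and Rik) genes and pseudogenes were left out. For Fcmr they were Pard6g (100.9, 4.05 and 32.3 CPM, distance 0.23), Gfod1 (29.4, 1.78 and 10.8 CPM, 0.24) and Arhgap18 (41.7, 2.21 and 9.98 CPM, 0.46), and 5 of 8476 genes lay within 0.5. For Fcer2a they were Slc25a13 (0.02), Rufy3 (0.11) and Hmgn1 (0.15), with 22 genes within 0.5. For Fcrl1 they were Lrsam1 (0.08), Ero1lb (0.15) and St3gal2 (0.17), with 64 genes within 0.5. Those nearest to Fcgr2b were Rpgrip1 (0.06), Cep68 (0.07) and Gyg (0.08) among 220 genes, and those nearest to Fcrla were Snx18 (0.05), Flna (0.09) and Gad1 (0.10) among 102. Fcrl5 had 1134 genes within 0.5, with Romo1 and Actr2 (0.01 each) and Irf2bpl (0.03) the nearest. The number of genes within 0.5 rose as the log2 range fell, from Fcmr (4.29) to Fcrl5 (1.11). It is therefore no separate measure of how common a pattern is.

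Levels of different genes were compared per exon length, as RPKM (CPM divided by exon length in kb, GENCODE M21). Fcmr led at 429 ± 449.6 RPKM, followed by Fcrl5 (96.9 ± 34.8), Fcrla (46.0 ± 34.2), Fcrl1 (27.6 ± 16.8), Fcgr2b (22.8 ± 12.7), Fcer2a (6.19 ± 4.48) and Fcgrt (0.658 ± 0.179). The ranges over the 3 libraries overlapped for each neighbouring pair from Fcmr to Fcgr2b. Within libraries, Fcrl5 was nevertheless above Fcrla in all 3 (59.1 and 23.4, 104 and 29.3, 128 and 85.4 RPKM). The other 3 of these pairs changed places in 1 library each. In tumour 2, Fcrl5 (104 RPKM) was above Fcmr (47.3 RPKM) and Fcrl1 (32.9 RPKM) above Fcrla (29.3 RPKM), and in tumour 1, Fcgr2b (10.4 RPKM) was above Fcrl1 (8.77 RPKM). Fcer2a (1.22 to 9.93 RPKM) lay wholly below Fcgr2b (10.4 to 35.8 RPKM) and wholly above Fcgrt (0.473 to 0.831 RPKM), while its highest value passed the lowest of Fcrl1. In each library Fcer2a was sixth and Fcgrt last. Among all tested genes, Fcmr was at the 99.7th, 90.8th and 99.3rd percentile of RPKM in tumours 1, 2 and 3, Fcer2a at the 13.8th, 56.6th and 47.6th, and Fcgrt at the 5.78th, 6.85th and 8.14th.

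**Figure D3:**
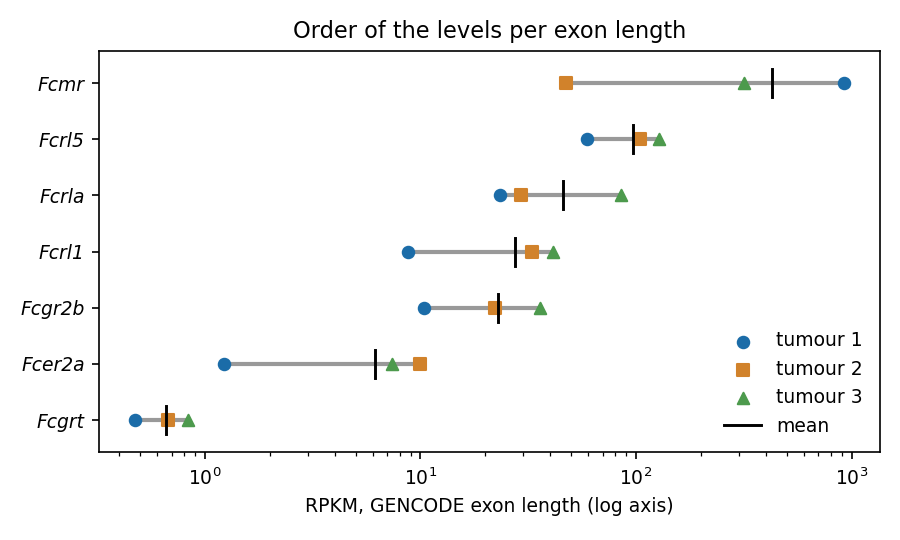
RPKM (log axis) of the 7 genes in each library, ordered by the mean, with a grey bar from the lowest to the highest library and a black tick at the mean. Bars of neighbouring genes overlap from Fcmr down to Fcgr2b, the bar of Fcer2a lies below that of Fcgr2b but reaches the low end of Fcrl1, and Fcgrt lies below all others.

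Of 12 other Fc receptor genes, 5 passed the filter and 4 of these were at least 4-fold apart, beside 9.43% of all tested genes. Pigr, the receptor that carries polymeric antibody across epithelia, was at 75.3, 15.5 and 97.4 CPM. Fcamr, a receptor for IgA and IgM, was at 10.3, 10.8 and 59.5 CPM. Trim21, a cytosolic antibody receptor, was at 44.0, 53.9 and 58.1 CPM. Fcgr4, an activating IgG receptor of myeloid cells, had 13, 898 and 411 counts, or 0.862, 55.0 and 23.2 CPM.

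The common γ chain gene Fcer1g, which activating Fc receptors need at the surface, had 12, 63 and 26 counts. Fcgr3, the low-affinity activating IgG receptor, had 3, 46 and 5 counts, and Fcgr1, the high-affinity one, had 0, 10 and 1. All 3 were highest in tumour 2, as were the macrophage genes Csf1r (0.994, 15.6 and 2.59 CPM) and Cd68 (24.8, 325 and 162 CPM). The part of macrophages in Fcgr4 was not tested. The Fc receptor relatives Fcrls (2, 44 and 34 counts), Fcrlb (3, 3 and 14) and Fcrl6 (0, 0 and 10) were scarce, and the mast cell IgE receptor genes Fcer1a (0, 0 and 3) and Ms4a2 (0, 0 and 5) had few counts or none.

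**Figure D4:**
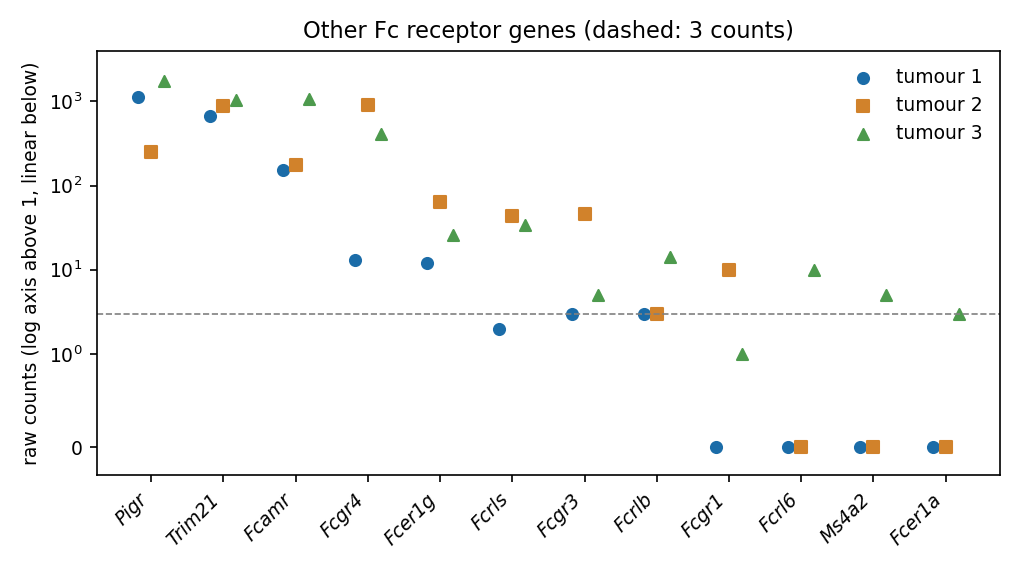
Raw counts of 12 other Fc receptor genes in each library, on an axis that is logarithmic above 1 and linear below, with a dashed line at 3 counts. Pigr, Trim21, Fcamr and Fcgr4 lead, Fcgr4 is at 13 counts in tumour 1 against 898 in tumour 2, and the mast cell receptor genes are at 0 in tumours 1 and 2.

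Fcmr lies in a cluster with Pigr and Fcamr, and its expressed neighbours differed among themselves. Within 200 kb, 7 other genes passed the filter, and 3 of them were at least 4-fold apart, beside 9.43% of all tested genes. Of the 7, 3 were lowest in tumour 2 as Fcmr was (Pigr, Gm15848 and Mapkapk2), beside 30.6% of all tested genes. Mapkapk2 (135, 73.7 and 78.9 CPM, log2 range 0.87) had the library order of Fcmr. Yod1 and Pfkfb2 were also highest in tumour 1 but lowest in tumour 3. Pigr, 13.4 kb away, was highest in tumour 3. Fcamr, 50.9 kb away, was highest in tumour 3. Il10, which encodes an inhibitory cytokine, lies 139 kb away on the other side and was at 51.4, 418 and 154 CPM, highest where Fcmr was lowest.

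Around Fcgr2b, 7 other genes passed the filter within 200 kb. Fcrla and Fcgr4 flank it, at 31.0 and 42.4 kb. Of the 7, 5 were lowest in tumour 1, beside 34.3% of all tested genes. They were Fcrla, itself among the genes described here, Fcgr4, Atf6 (106, 189 and 140.2 CPM), Cfap126 (2.45, 2.51 and 2.71 CPM) and Gm9929 (1.19, 1.41 and 1.58 CPM). Cfap126 (37, 41 and 48 counts) and Gm9929 (18, 23 and 28 counts) had few counts and log2 ranges of only 0.14 and 0.37. Dusp12 and Sdhc were not lowest in tumour 1. Dusp12, on the far side of Fcrla, was at 7.62, 7.97 and 7.38 CPM, and Sdhc, beyond Fcgr4, at 78.5, 52.4 and 70.9 CPM. Around Fcer2a, 6 neighbours passed and none had a log2 range above 0.58, against 2.98 for Fcer2a itself.

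**Figure D5:**
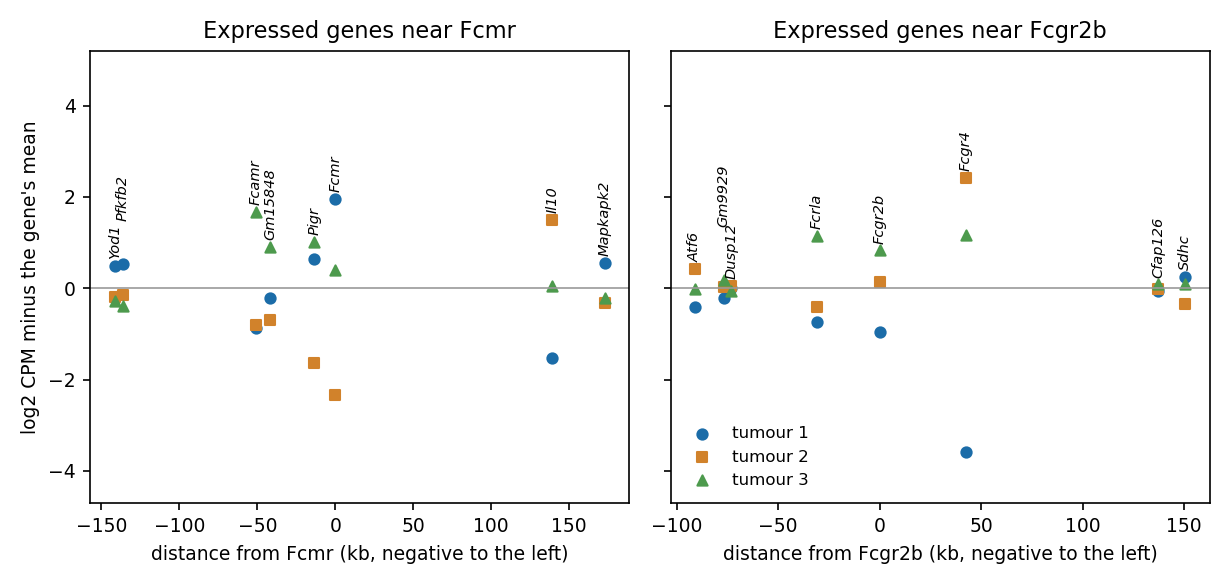
Log2 CPM of each expressed gene within 200 kb of Fcmr (left) and Fcgr2b (right), minus the gene's mean, against its distance in kb from that gene. Tumour 2 lies lowest for Fcmr, Pigr, Gm15848 and Mapkapk2, and tumour 1 lies lowest for Fcrla, Fcgr2b and Fcgr4.

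Promoter sequences are shown for Fcmr, which was highest in tumour 1, and for the 3 genes on chromosomes 3 and 8 that were lowest there and hold a match to an ETS core, GGAAGT, the motif of ETS family factors such as PU.1. All 7 genes matched the RefSeq promoter table (GRCm38.p6), which spans 250 bases before to 50 after a start site. Where Fcer2a had 3 start sites, the one nearest to the GENCODE start was used. Only bases outside annotated exons are printed, 5′ to 3′ on the strand of the gene, at chr1:130865527-130865668 (plus strand), chr3:87376137-87376386 (plus), chr3:87435532-87435772 (plus) and chr8:3694176-3694424 (minus). Capitals mark GGAAGT and TATAAA on either strand, and the Fcmr stretch holds neither. Because the match was part of the choice, the printed stretches cannot relate GGAAGT to the levels. Fcrla and Fcgrt also had their lowest value in tumour 1, and their promoter sequences hold no GGAAGT.
Fcmr: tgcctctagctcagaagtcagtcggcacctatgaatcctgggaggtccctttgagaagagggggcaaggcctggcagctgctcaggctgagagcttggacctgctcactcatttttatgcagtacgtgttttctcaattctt
Fcrl1: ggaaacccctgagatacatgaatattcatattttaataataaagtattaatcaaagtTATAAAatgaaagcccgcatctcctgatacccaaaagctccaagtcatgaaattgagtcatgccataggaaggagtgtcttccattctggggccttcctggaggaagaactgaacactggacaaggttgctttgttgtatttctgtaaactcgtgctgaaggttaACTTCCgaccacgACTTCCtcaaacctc
Fcrl5: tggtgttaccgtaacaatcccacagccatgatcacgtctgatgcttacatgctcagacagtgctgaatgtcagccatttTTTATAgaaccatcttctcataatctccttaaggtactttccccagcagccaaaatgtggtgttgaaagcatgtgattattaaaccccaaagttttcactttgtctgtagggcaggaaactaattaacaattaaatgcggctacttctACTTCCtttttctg
Fcer2a: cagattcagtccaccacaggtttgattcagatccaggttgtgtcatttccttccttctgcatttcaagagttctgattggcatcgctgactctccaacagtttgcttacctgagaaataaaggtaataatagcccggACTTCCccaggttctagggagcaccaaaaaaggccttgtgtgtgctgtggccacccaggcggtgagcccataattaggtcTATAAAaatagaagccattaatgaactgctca

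Both strands of each 300-base window were searched. GGAAGT was in 4 of the 7 windows (Fcer2a, Fcgr2b, Fcrl1 and Fcrl5) and in 23.8% of 32851 windows in the table. In Fcrl1 matches begin 28 and 15 bases before the start site, in Fcrl5 23, in Fcgr2b 31 and in Fcer2a 113. All lie on the minus strand of the gene. The start site used for Fcgr2b lies 476 bases inside its GENCODE gene, so that match is within the annotated gene. TATAAA was in 4 of 7 (Fcer2a, Fcrla, Fcrl1 and Fcrl5), against 13.6%. It began 33 bases before the start in Fcer2a, 193 in Fcrl1 and 171 in Fcrl5, there on the minus strand. In Fcrla it lies past the start, at position 28. CAGGTG, the E-box that E2A binds, was in Fcmr and Fcrla, against 20.2%. In Fcmr it lies past the start, at position 37, and in Fcrla it began 69 bases before the start. The NF-κB consensus (4.51% of all windows) and the STAT motifs TTCNNNNGAA (6.95%) and TTCNNNGAA (8.3%) were in none of the 7, which says only that these letters are not in these windows. A match is a description of the sequence and not a bound site.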

How the data were processed

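RNA was sequenced as single-end reads of 50 nt from 3 sorted lymphoma libraries, per the labels. The deposited files hold unnormalised gene counts, and the submitters' processing notes name FastQC, STAR 2.5.2b, featureCounts 1.6.0 and mm10. Neither the gene annotation nor the strandedness used by the authors is stated there, so a gene and its antisense partner may not be told apart. Tumour numbers follow accession order and carry no meaning.

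TMM factors from edgeR 4.0.16 under R 4.3.3 were 0.969, 0.990 and 1.04. Log2 CPM used a prior count of 2, and filterByExpr set the tested genes. DESeq2 1.42.0 gave alternative size factors. Exon lengths came from GENCODE M21, which matched 37536 of 37646 gene identifiers. Tables and Poisson intervals were made in Python 3.11.15 (SciPy 1.17.1, pandas 2.3.3, NumPy 2.4.6), and plots in matplotlib 3.10.9. The scripts that find the 4-fold range and the lowest library were tested on simulated data. The simulated spread between libraries was smaller than that of these data. The test therefore cannot show how often such spread alone gives a 4-fold range. At this depth, 3 counts correspond to 0.199, 0.184 and 0.169 CPM. Intervals are exact Poisson intervals and cover counting error only, and PCR copies of a molecule were not told apart.

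The 7 genes, the gene lists and the rule for named genes were chosen with earlier results of these data known. Named were all 7 genes, the other Fc receptors, up to 4 genes of each other pathway list (2 by mean CPM, then 2 by SD of log2 CPM) and the 3 genes nearest in pattern to each gene with a log2 range of at least 1. The rule orders those 4 by mean CPM, then SD, and was read as 2 of each only after the values had been seen. Cell type markers, neighbours, Cd22, Ighe and Gm38204 were also named after their values were seen, and the motif set, the 200 kb window, the 50-base word check and the printed promoter stretches were chosen at that stage too. A gene that the rule names is not reported here. Alternatives covered scaling, filter, prior count, gene length, the pan B cell reference and leaving out each library.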

Additional observations from a re-analysis of the deposited data

How the results depend on the processing

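The 4-fold range held for 3 of the 7 genes with DESeq2 size factors, plain library totals, a prior count of 0.5 and no filter, where the share of all genes 4-fold apart was 16.3% in place of 9.43%. Leaving out each library in turn, 1 to 2 genes were 4-fold apart. The count was 1 without tumour 1 (3.79% of tested genes), 2 without tumour 2 (5.93%) and 2 without tumour 3 (5.29%). The count lowest in tumour 1 stayed at 6 under each other scaling and fell to 4 relative to the pan B cell genes. The order of mean RPKM was unchanged in all 6 neighbouring pairs with longest-transcript lengths, with DESeq2 size factors and without each library. Other scalings moved the mean CPM of each gene by at most 1.02-fold. No paired analysis was possible because the labels give 1 group. The depth limits Fcgrt, with 15 to 31 counts.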

Other observations

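Genes that mark subsets of mature B cells were read beside the receptors, and their members were named after their values were seen. Of 8 marginal zone B cell genes, all passed the filter and 3 were at least 4-fold apart, beside 9.43% of all tested genes. They were Cr2, given above, S1pr3, a sphingosine 1-phosphate receptor (3.31, 102 and 110 CPM in tumours 1, 2 and 3), and Cd1d1, a lipid-presenting molecule (49.9, 239 and 87.5 CPM). All 3 were lowest in tumour 1, where Fcer2a and Fcrl1 were lowest too, but Cd9 (204, 169 and 91.2 CPM) and Myof (298, 327 and 289 CPM) of the same list were lowest in tumour 3. The 6 follicular B cell genes differed from CD23, itself a follicular marker: Cr2 alone was lowest in tumour 1, 4 were lowest in tumour 2, and 3 were highest in tumour 1, among them Ccr7 (190.5, 91.8 and 73.0 CPM). Of 6 B-1 cell genes, 4 were 4-fold apart, beside the same 9.43%. They were Cd5 (82.0, 33.9 and 16.0 CPM), Zbtb32 (111, 581 and 455 CPM), Ctla4 (4.71, 5.15 and 26.4 CPM) and Spn, which encodes CD43 (244, 42.9 and 255 CPM). Spn and the pan B cell gene Cd72 (318, 46.5 and 198 CPM), an inhibitory receptor, were lowest in tumour 2, as Fcmr was. These are levels in 3 libraries, and no relation between the genes was tested.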
